A study of Mus musculus with 24 samples.

Results

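Transcripts of 8 genes of GABA and glycine transmission were followed across Celf6 knockout (KO) and wild-type (WT) mouse brain, in serotonin-cell RNA and in total RNA. The genes were chosen by name, and all 8 were among the 24062 genes counted. They are Gad1 and Gad2 (synthesis of GABA), Slc32a1 (loading of vesicles), Slc6a5 (reuptake of glycine), Abat (breakdown of GABA), Pvalb (a marker of some inhibitory neurons), and Sox14 and Tal1 (transcription factors of inhibitory neurons). The tissue was taken at postnatal day 9 from the region just behind the thalamus, after the cortex had been removed. CELF6, the protein missing in the KO mice, binds RNA.

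The 4 groups were KO TRAP (5 libraries), WT TRAP (5), KO input (5) and WT input (3). TRAP is translating ribosome affinity purification: a tagged ribosomal protein, here carried by an allele specific to serotonin cells, allows RNA on the ribosomes of those cells to be pulled out of a tissue lysate. Input is total RNA from the same kind of tissue. The labels give neither the strain nor the promoter of the TRAP allele, and they do not say whether animals were pooled. Amplification used the Nugen Ovation 2 kit, and libraries were made with NEBNext Ultra. Replicates 1 to 3 were labelled sequencing run 1, and replicates 4 and 5 run 2.

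GABA and glycine are the main inhibitory transmitters of the brainstem and midbrain. Both glutamate decarboxylases make GABA, a shared vesicular transporter loads GABA or glycine into synaptic vesicles, and a plasma membrane transporter returns glycine to glycinergic terminals. Neurons that make these transmitters lie among and around the serotonin neurons of the raphe nuclei, and they contact them.

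The used libraries held 3390423 to 11205985 counts and 13788 to 16370 genes with a count. The counts of WT input 2 and 3 agreed as closely as those of a library run again: the chi-square per gene was 1.34 between them, 1.37 to 2.58 in 4 pairs of repeat runs, and 24.7 to 90.3 in the 35 other same-group pairs. Both were therefore added together as 1 library, WT input 2/3. Of 11 serotonergic markers, 10 passed as higher in TRAP, and their summed level was 4210 to 10622 CPM (counts scaled to library size) in TRAP and 195 to 320 CPM in input. Celf6 averaged 51.3 ± 38.1 CPM in KO TRAP and 142 ± 41.5 CPM in WT TRAP (SD). It averaged 15.2 ± 6.37 CPM in KO input and 51.0 ± 47.2 CPM in WT input, so its RNA was still counted in the KO libraries. Its KO minus WT log2 fold change was -1.52 ± 0.38 in TRAP (SE, edgeR, unadjusted p = 0.000761) and -1.565 ± 0.66 in input (unadjusted p = 0.0314). Neither passed in edgeR (adjusted p = 0.999 in TRAP and 0.9996 in input), so even the gene knocked out did not reach the threshold set over all genes. The labels do not say which part of the gene is deleted, so counts over the whole gene are a weak check of genotype. The library labelled KO TRAP 1 had 115 CPM of Celf6, inside the 85.3 to 188 CPM of the WT TRAP libraries and above the 21.4 to 56.5 CPM of the other 4 KO TRAP libraries. WT input 2/3 had 15.4 CPM, inside the 4.79 to 22.0 CPM of the KO input libraries, and whether WT input 2 or WT input 3 carries a wrong label was not settled. All libraries are named and grouped as labelled, and results are also given without these 2. All p-values measure the spread between labelled samples, which may be technical in part.

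Sequence just upstream of the start sites differed among the members. RefSeq (GRCm38.p6) gave 10 start sites for 7 of the 8 members, each with 250 bases before the start and 50 after it; Abat had no entry. CAGATG, a core found in binding sites of Tal1 and other basic helix-loop-helix factors and read as CATCTG on the other strand, stood in 3 of the 10 windows (Gad2, Slc6a5 and Tal1), against 17.2% of all 32851 promoters. AGATAA or its reverse TTATCT, the GATA factor core, stood in 1 (Tal1), against 11.2% of all promoters. TATAAA, the TATA box core, or TTTATA stood in 1 (Gad1), against 13.6%, and CAGCTG, which reads the same on both strands, in 0, against 16.3%. The motifs do not overlap one another by their letters alone, and a match is a description of sequence, not a site of binding. Stretches of 30 bases around matches are given 5′ to 3′ on the strand of the gene, with the motif in capitals. They are for Gad2, which passed in TRAP against input, for the glycine gene Slc6a5, and for Tal1, whose partners are GATA factors. The Slc6a5 stretch belongs to a start site inside the counted gene, which begins at 49910299.
Gad2, chr2:22622239-22622268, motif start at -76 from the start site: ctccctcccccgCATCTGactcgcacctca
Slc6a5, chr7:49911597-49911626, motif start at -91: ctggaatgtgtgCATCTGtgtatgcagacc
Tal1, chr4:115056209-115056238, motif start at -205: ctatagagtcttTTATCTttgagcaattcc

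Levels are given as CPM scaled by TMM, a factor that evens out library composition. Between genes, only CPM per kilobase of exon was compared. On that scale the order in TRAP was Abat (105 ± 31.7, SD, n = 10), Gad2 (52.3 ± 24.4), Pvalb (27.4 ± 29.3), Gad1 (24.8 ± 8.29), Slc32a1 (12.02 ± 6.68), Slc6a5 (8.79 ± 7.80), Sox14 (6.65 ± 5.51) and Tal1 (5.30 ± 2.24). In input the order was Abat (120.3 ± 42.1, n = 8), Gad2 (101 ± 38.1), Pvalb (41.7 ± 23.2), Gad1 (30.0 ± 8.29), Slc32a1 (27.5 ± 13.6), Slc6a5 (16.9 ± 11.3), Tal1 (9.29 ± 2.93) and Sox14 (8.42 ± 7.85). Every pair of neighbours in either order had overlapping ranges over libraries, so the steps between them were within the spread. Gad2 nonetheless stood above Gad1 per length in each of the 18 libraries, with a highest Gad1 to Gad2 ratio of 0.932 per kilobase, in WT TRAP 3.

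**Figure D1:**
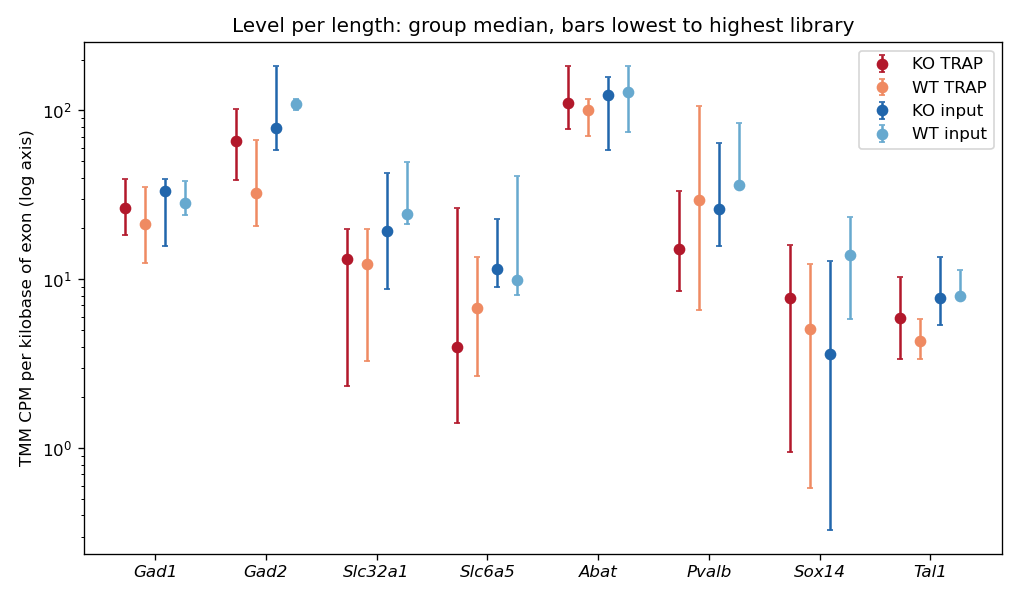
Level of each member in CPM per kilobase of exon (log axis), by group; points are group medians and bars run from the lowest to the highest library. Abat and Gad2 are at the top in both RNA kinds and Tal1 and Sox14 near the bottom, and the bars of neighbouring genes overlap.

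The first question was how these RNAs fared in TRAP against input, which asks whether they are depleted when serotonin-cell RNA is purified. Gad2 and Slc32a1 were lower in TRAP, by 2.04-fold and 2.35-fold, and passed the test. The other 6 members, Gad1, Slc6a5, Abat, Pvalb, Sox14 and Tal1, did not pass, with log2 fold changes of -0.95 to -0.21. For scale, Tph2, the rate-limiting enzyme of serotonin synthesis, was higher in TRAP by 5.89 ± 0.36 (log2 fold change ± SE, as throughout). Thus 2 of 8 members were called lower, at an adjusted p below 0.05 in edgeR's quasi-likelihood test, where 2.31% of the 14261 genes tested were called lower and 4.72% in either direction. The median log2 fold change was -0.80 over the members and 0.02 over all genes tested, and 51.6% of all genes tested had a positive value.

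Gad2, the decarboxylase that is abundant at axon terminals, lies on chromosome 2 at 22622327–22693877 (mm10, plus strand). Its level was 217, 316, 378, 573 and 372 CPM in KO TRAP 1 to 5 and 374, 153, 117, 258 and 182 CPM in WT TRAP 1 to 5. In input it was 329, 443, 1028, 420.2 and 491 CPM in KO 1 to 5, and 654, 562 and 611 CPM in WT 1, 2/3 and 5. All 5 WT TRAP libraries lay below all 3 WT input libraries, whereas KO TRAP 4 was above 4 of the 5 KO input libraries. How many of all genes separate in this way was not counted. Over both genotypes, 6 of 10 TRAP libraries were below every input library. The fitted value was -1.03 ± 0.24 (edgeR, adjusted p = 0.0130; n = 10 TRAP and 8 input). Mean log2 CPM differed by -1.26 within run 1 and by -0.74 within run 2, and the values given for a run below are likewise differences of mean log2 CPM, not fits. The call held without each of the 18 libraries in turn (adjusted p up to 0.0415, without WT input 5), including KO TRAP 1 (adjusted p = 0.0236) and WT input 2/3 (adjusted p = 0.0244). With the KO libraries alone it was -0.58 ± 0.33 (edgeR, adjusted p = 0.490), and with the WT libraries alone -1.51 ± 0.32 (adjusted p = 0.0219). The difference between these genotypes, tested as an interaction, did not pass (adjusted p = 1.00).

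Slc32a1 encodes the vesicular transporter of GABA and glycine and lies on chromosome 2 at 158610758–158615747, plus strand. It had 55.7, 6.54, 37.0, 21.9 and 43.0 CPM in KO TRAP 1 to 5, and 34.4, 19.6, 9.22, 56.0 and 53.7 CPM in WT TRAP 1 to 5. In input it had 54.0, 24.6, 99.2, 52.7 and 119 CPM in KO 1 to 5, and 68.5, 59.9 and 138 CPM in WT 1, 2/3 and 5. Each of the 10 TRAP libraries was below the input median of 64.2 CPM, and 5 of 8 input libraries were above every TRAP library. Its fold change of -1.23 ± 0.37 on the log2 scale (edgeR, adjusted p = 0.0497) was just inside the threshold. Means of log2 CPM were apart by -1.43 within run 1 and by -1.34 within run 2. The call held without KO TRAP 1, KO TRAP 3, WT TRAP 1, KO input 2 or KO input 4 and was lost without any 1 of the other 13 libraries (adjusted p up to 0.150, without WT input 5), among them WT input 2/3 (adjusted p = 0.0674). It was also lost with no term for the run (adjusted p = 0.0671). Without 1 library the estimate ran from -1.46 to -1.07.

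Gad1 makes GABA throughout the neuron. It lies on chromosome 2 at 70562164–70602012 on the plus strand, with exons of Gad1os inside its span but none overlapping its own. KO TRAP 1 to 5 had 85.1, 127, 92.2, 61.4 and 58.8 CPM, and WT TRAP 1 to 5 had 113, 40.4, 62.7, 92.9 and 68.7 CPM. KO input 1 to 5 had 79.8, 50.6, 126, 119 and 108 CPM, and WT input 1, 2/3 and 5 had 124, 77.5 and 91.3 CPM. The groups overlapped widely, with 1 TRAP library below and 1 above all input libraries. TRAP minus input was -0.28 ± 0.25 on the log2 scale (edgeR, adjusted p = 0.607), with -0.12 in run 1 and -0.55 in run 2.

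**Figure D2:**
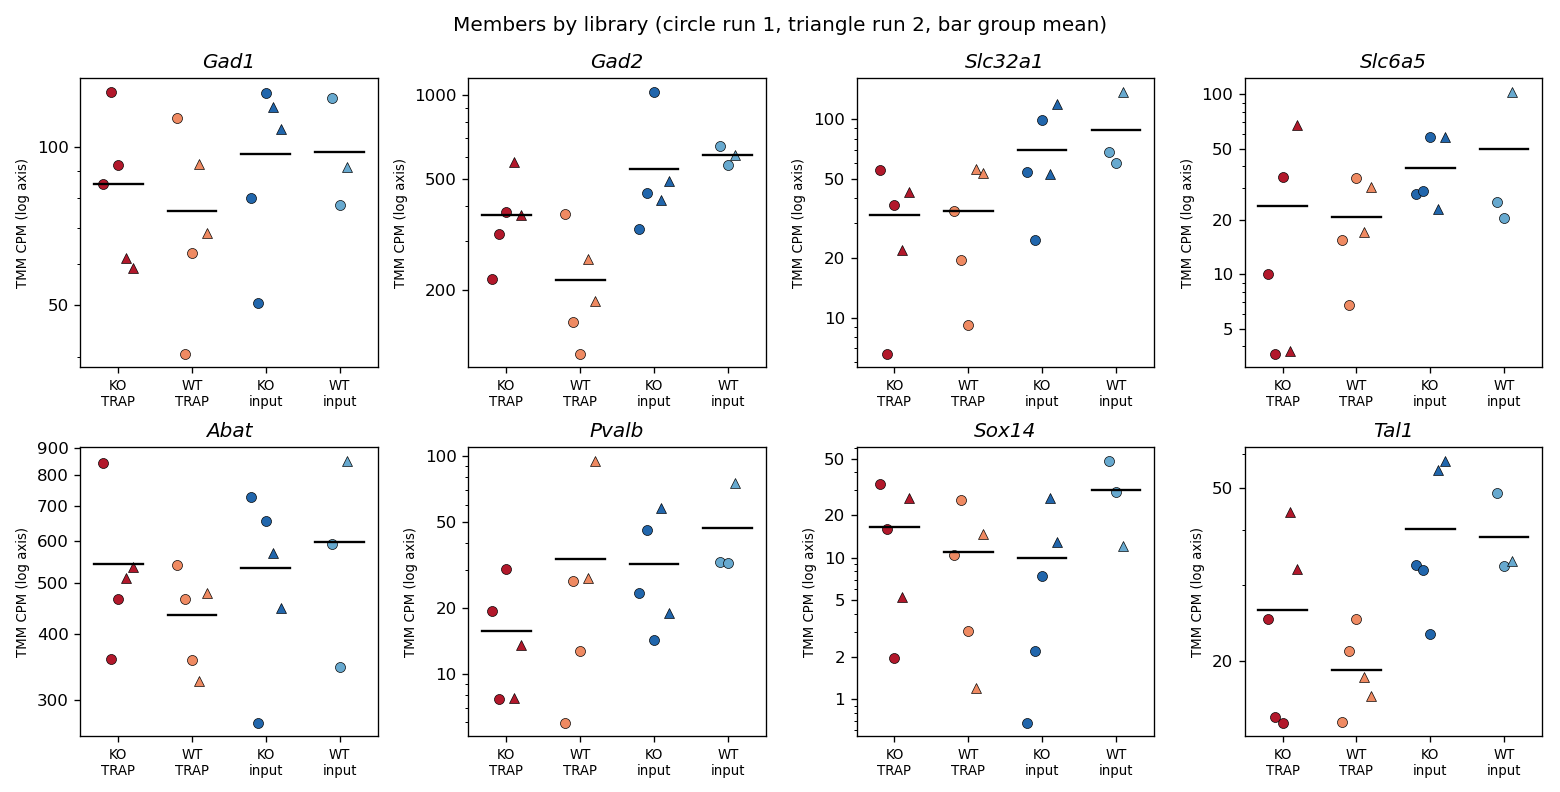
TMM-scaled CPM (log axis) of each member in every library, by group; circles are run 1, triangles run 2 and bars group means. Gad2, Slc32a1 and Tal1 have all 5 WT TRAP libraries below all 3 WT input libraries. The WT groups of the other 5 members overlap, as do KO TRAP and KO input in every member. The share of all genes that separate this way was not counted, so the separation cannot be called particular to these members.

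The ratio of both decarboxylase RNAs within a library does not depend on library scaling. The log2 ratio of Gad1 to Gad2 counts was -1.35, -1.31, -2.04, -3.22 and -2.66 in KO TRAP 1 to 5 and -1.73, -1.92, -0.90, -1.47 and -1.41 in WT TRAP 1 to 5. It was -2.04, -3.13, -3.03, -1.82 and -2.18 in KO input 1 to 5 and -2.40, -2.86 and -2.74 in WT input 1, 2/3 and 5. WT TRAP lay above WT input in every library, and KO TRAP spanned nearly the whole range. TRAP averaged -1.80 ± 0.69 (SD, n = 10) and input -2.53 ± 0.48 (n = 8), a difference of 0.72 or 1.65-fold (2-sided exact permutation test over 43758 splits, p = 0.0260; Benjamini-Hochberg adjusted over 6 ratio comparisons, 0.156). The difference therefore missed the threshold after adjustment, and it also missed it under 19 of 20 alternatives. The exception left out KO TRAP 4, the library with the lowest ratio, and gave 0.88 (exact permutation test, adjusted p = 0.0222). Per kilobase of exon the median Gad1 to Gad2 ratio was 0.424 in KO TRAP, 0.628 in WT TRAP, 0.383 in KO input and 0.260 in WT input.

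**Figure D3:**
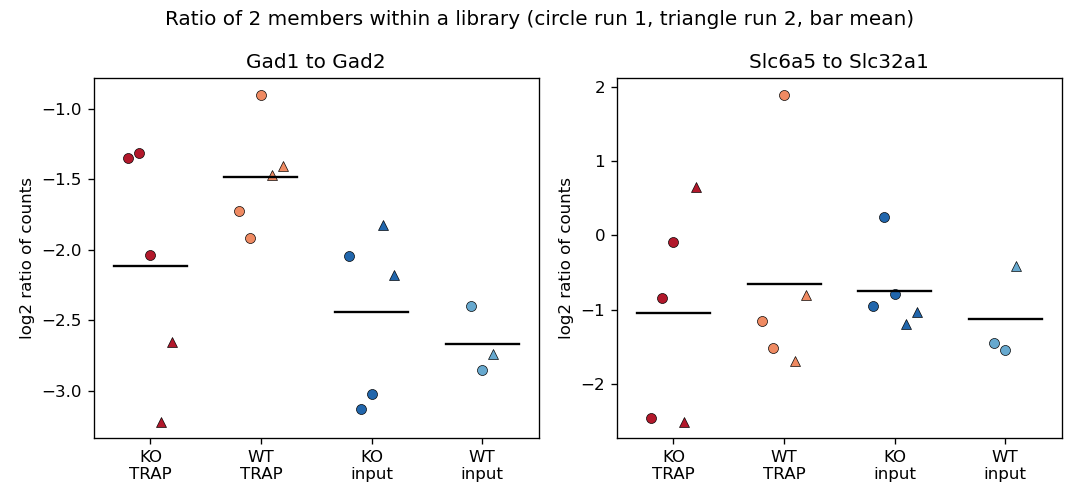
Log2 ratio of counts of Gad1 to Gad2 (left) and of Slc6a5 to Slc32a1 (right) in every library, by group; circles are run 1, triangles run 2 and bars group means. The Gad1 to Gad2 ratio is higher in every WT TRAP library than in any WT input library, and the Slc6a5 to Slc32a1 ratio spreads most in TRAP.

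Slc6a5, which encodes the glycine transporter of glycinergic neurons, lies on chromosome 7 at 49910299–49959493, plus strand. Among the members for synthesis, transport and breakdown, it had the largest coefficient of variation over the TRAP libraries (88.7%). It had 10.1, 3.60, 34.9, 3.77 and 67.3 CPM in KO TRAP 1 to 5, and 15.4, 6.79, 34.4, 17.2 and 30.7 CPM in WT TRAP 1 to 5. Input held 27.8, 29.2, 57.6, 23.0 and 58.2 CPM in KO 1 to 5 and 25.1, 20.6 and 104 CPM in WT 1, 2/3 and 5. Thus 6 of 10 TRAP libraries lay below every input library, while KO TRAP 5 exceeded all but 1 of the input libraries. The coefficient of variation was 115% in KO TRAP and 54.5% in WT TRAP, 44.1% in KO input and 93.8% in WT input. TRAP minus input was -0.95 ± 0.48 (edgeR, adjusted p = 0.277), with -1.12 in run 1 and -1.65 in run 2. Without WT input 5 it was -0.58.

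The Slc6a5 to Slc32a1 ratio sets glycine reuptake against the vesicular transporter that glycine and GABA neurons share. Its log2 value averaged -0.85 ± 1.37 in TRAP (n = 10) and -0.89 ± 0.58 in input (n = 8), a difference of 0.04 (2-sided exact permutation test, p = 0.956). It ran from -2.51 in KO TRAP 4 to 1.89 in WT TRAP 3. Per kilobase the median ratio was 0.605 in KO TRAP, 0.493 in WT TRAP, 0.567 in KO input and 0.404 in WT input.

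Abat encodes GABA transaminase, the mitochondrial enzyme that breaks GABA down in neurons and glia; it lies on chromosome 16 at 8513429–8621567, plus strand. It was the highest member per length. KO TRAP 1 to 5 held 846, 358, 467, 511 and 535 CPM, and WT TRAP 1 to 5 held 542, 467, 358, 326 and 479 CPM. KO input 1 to 5 held 727, 271, 655, 569 and 449 CPM, and WT input 1, 2/3 and 5 held 592, 346 and 854 CPM. Both the lowest and the highest library were input libraries. The fitted difference was -0.21 ± 0.22 (edgeR, adjusted p = 0.655), with 0.02 in run 1 and -0.53 in run 2.

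Pvalb encodes parvalbumin, a calcium-binding protein of fast-firing inhibitory neurons and of cerebellar Purkinje cells, and lies on chromosome 15 at 78191118–78206351, minus strand. It had 19.5, 7.68, 30.3, 7.73 and 13.6 CPM in KO TRAP 1 to 5 and 5.94, 26.7, 12.8, 27.5 and 95.5 CPM in WT TRAP 1 to 5. It had 23.4, 45.8, 14.3, 58.0 and 19.1 CPM in KO input 1 to 5 and 32.8, 32.2 and 75.7 CPM in WT input 1, 2/3 and 5. WT TRAP 5 held the highest value of any library, and 5 of 10 TRAP libraries lay below all input libraries. TRAP minus input was -0.76 ± 0.43 (edgeR, adjusted p = 0.352), with -0.95 in run 1 and -1.11 in run 2. The list of cerebellar Purkinje and granule cell markers holds Pvalb itself and 8 other genes, of which 0 passed in edgeR. The sum of those 8 was 99.9 to 396 CPM in TRAP and 149 to 293 CPM in input. It was highest in WT TRAP 5 and, among input libraries, in WT input 5, the libraries with the highest Pvalb of each kind. Other libraries did not follow this: KO TRAP 4 held a sum of 315 CPM with 7.73 CPM of Pvalb. KO TRAP 3 held a sum of 155 CPM with 30.3 CPM of Pvalb. The part of these markers in the Pvalb values was not tested.

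Tal1 encodes a transcription factor that, in mouse, sets the GABAergic fate of anterior hindbrain neurons. It lies on chromosome 4 at 115056426–115071755, plus strand. TRAP held 25.1, 14.9, 14.4, 44.1 and 32.6 CPM in KO 1 to 5 and 14.5, 21.2, 25.0, 18.4 and 16.6 CPM in WT 1 to 5. Input held 33.2, 32.4, 23.0, 55.1 and 57.9 CPM in KO 1 to 5 and 48.7, 33.2 and 34.1 CPM in WT 1, 2/3 and 5. All 5 WT TRAP libraries lay below all 3 WT input libraries, a separation whose share over all genes was not counted. At -0.84 ± 0.31 it missed the threshold in edgeR (adjusted p = 0.119), while DESeq2 called it (-0.86, adjusted p = 0.0216). Run 1 gave -0.87 and run 2 -0.76.

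Sox14, a transcription factor gene of inhibitory neurons of the thalamus and midbrain in mouse, has a single exon on chromosome 9 at 99874106–99876170, minus strand. It spread widely inside groups, with 32.9, 16.0, 1.95, 5.28 and 26.4 CPM in KO TRAP 1 to 5 and 10.5, 25.4, 3.01, 1.20 and 14.7 CPM in WT TRAP 1 to 5. Input held 0.675, 2.19, 7.47, 26.4 and 12.9 CPM in KO 1 to 5 and 48.6, 28.9 and 12.1 CPM in WT 1, 2/3 and 5. Lowest and highest were KO input 1 and WT input 1. TRAP minus input was -0.31 ± 0.65 (edgeR, adjusted p = 0.850), and mean log2 CPM differed by 0.01 in run 1 and -0.98 in run 2. The sign of the edgeR fit turned with the KO libraries alone (1.26), with run 1 alone (0.35) and without KO input 4 (0.0259).

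In bulk samples, fewer cells of a type and less RNA per cell cannot be told apart. Nor do the counts show which cells an RNA found in TRAP came from. Markers of some other cell types were also lower in TRAP, where 2.31% of all genes tested were called lower. Of 10 astrocyte markers 5 passed as lower, with a summed level of 606 to 1405 CPM in TRAP and 1252 to 2550 CPM in input. Of 10 oligodendrocyte lineage markers 6 passed as lower, at 1101 to 5562 CPM in TRAP and 5013 to 13191 CPM in input. Of 8 tested glutamatergic markers 3 passed as lower and 1 as higher, at 259.8 to 484 CPM in TRAP and 490.5 to 802 CPM in input. Of 7 markers of ependyma, choroid plexus and meninges 2 passed as lower. Of 9 tested dopaminergic and noradrenergic markers 1 passed as lower and 1 as higher. Of 5 cholinergic, 8 microglia and macrophage, 7 endothelial and mural and 9 cerebellar markers, 0 passed. The part of these cells in the values of the GABA and glycine genes was not tested.

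The pathway around the members was followed through lists of genes in TRAP against input, where 2.41% of all genes tested were called higher and 2.31% lower. Of 21 other genes of GABA and glycine synthesis, transport and breakdown, 1 rose and 3 fell in TRAP, with a median of -0.62 over the list. Slc6a11, a GABA transporter found mainly in astrocytes, averaged 142 CPM in TRAP and 629 CPM in input (log2 fold change -2.17 ± 0.24, edgeR, adjusted p = 1.01e-06). Maob, monoamine oxidase B, which is also a serotonergic marker, averaged 108 CPM in TRAP and 14.9 CPM in input (2.84 ± 0.40, adjusted p = 4.64e-05). Slc6a9, the glycine transporter found mainly on glia, fell by 1.16 on the log2 scale (adjusted p = 0.0312), a call lost without WT input 1 (adjusted p = 0.118), WT input 5, KO input 5, WT TRAP 2 or WT TRAP 3. Aldh5a1, which encodes the enzyme after Abat in GABA breakdown, fell by 0.65 (adjusted p = 0.0436), and this call held only without WT TRAP 1, KO TRAP 3, KO TRAP 5, KO input 2 or KO input 4 among the 18 libraries left out in turn (adjusted p up to 0.198).

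Among 26 tested genes for receptors, scaffold and chloride transport, 2 rose and 1 fell, and the median was -0.06. Gabrg3, a GABA-A receptor subunit, averaged 45.6 CPM in TRAP and 9.82 CPM in input (2.59 ± 0.58, edgeR, adjusted p = 0.00788), a call lost without WT input 5 (adjusted p = 0.0513). Glra2, a glycine receptor subunit, averaged 84.3 CPM in TRAP and 37.4 CPM in input (1.12 ± 0.28, adjusted p = 0.0182), lost without WT input 1 or WT input 5 (adjusted p up to 0.0859). Slc12a5, the neuronal chloride exporter that makes GABA inhibitory, averaged 161 CPM in TRAP and 269 CPM in input (-0.74 ± 0.21, adjusted p = 0.0400). Its call held only without KO TRAP 1, KO TRAP 3, WT TRAP 1, WT TRAP 4, KO input 2 or KO input 4 (adjusted p up to 0.108). Gabbr2, a subunit of the GABA-B receptor, was at -0.73 ± 0.22 and missed the threshold (adjusted p = 0.0566).

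Of 16 tested lineage transcription factors of inhibitory neurons, 4 rose and 1 fell, with a median of -0.37; Helt, Ptf1a and Dlx1 were at 0 in every library. Gata2 and Gata3, partners of Tal1 in GABAergic development in mouse, are also serotonergic markers here. Gata2 averaged 148 CPM in TRAP and 8.94 CPM in input (4.16 ± 0.41, edgeR, adjusted p = 1.14e-07), and Gata3 74.9 CPM in TRAP and 27.2 CPM in input (1.44 ± 0.31, adjusted p = 0.00698). En1, a factor of midbrain and anterior hindbrain that also marks dopaminergic neurons, rose by 1.74 ± 0.39 (adjusted p = 0.00824). Pax2, which marks many inhibitory interneuron precursors, averaged 16.3 CPM in TRAP and 59.1 CPM in input (-2.03 ± 0.39, adjusted p = 0.00205). The fourth that rose was Zfpm1, a cofactor of GATA factors, named after its values were seen (1.81 ± 0.53, adjusted p = 0.0476); without KO TRAP 2 it was 1.08 (adjusted p = 0.175), and its call held only without KO TRAP 1, KO TRAP 3, KO TRAP 5, WT TRAP 1 or KO input 4.

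Of 18 tested subtype genes of inhibitory neurons, 1 rose and 2 fell, and the median was -0.52. Pnoc, the nociceptin precursor, averaged 2.47 CPM in TRAP and 21.7 CPM in input (-3.20 ± 0.64, edgeR, adjusted p = 0.00310). Tac1, the substance P precursor, averaged 92.8 CPM in TRAP and 49.5 CPM in input (0.99 ± 0.27, adjusted p = 0.0335), and its call held only without KO TRAP 1, KO TRAP 2, KO TRAP 4, KO TRAP 5, WT TRAP 1, WT TRAP 3, KO input 1 or KO input 3 (adjusted p up to 0.0999). Syt2, a calcium sensor of fast release sites, averaged 42.9 CPM in TRAP and 108 CPM in input (-1.37 ± 0.40, adjusted p = 0.0451), which held only without KO TRAP 1, KO TRAP 3, WT TRAP 1, WT TRAP 5 or KO input 2 (adjusted p up to 0.123). Cplx1, a complexin of the release machinery, was at -0.60 ± 0.18 and missed the threshold (adjusted p = 0.0515).

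**Figure D4:**
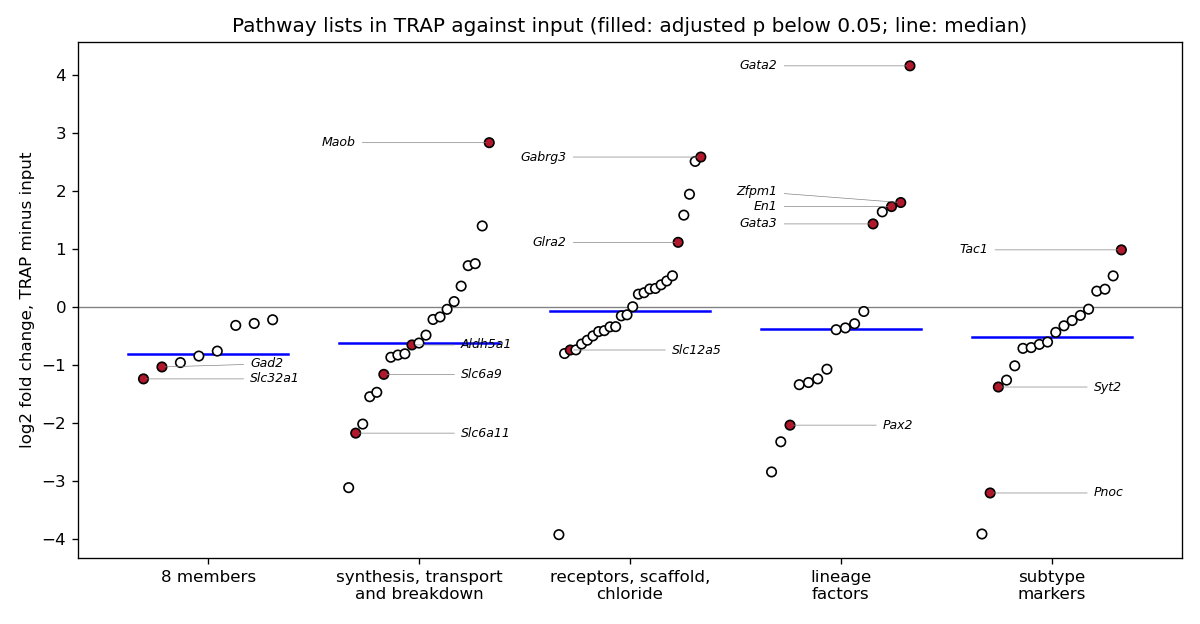
Log2 fold change, TRAP minus input, of the 8 members and of the tested genes of the 4 pathway lists; filled points have an edgeR adjusted p below 0.05 and are named, and blue lines are list medians. Gad2 and Slc32a1 are the filled members, and the medians run from -0.80 (members) to -0.06 (receptors, scaffold and chloride transport).

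The second question was whether loss of Celf6 changed these genes in serotonin-cell RNA. None of the 8 members passed between KO TRAP and WT TRAP (edgeR, adjusted p = 0.999 each), and neither did any of the 12204 genes tested (0%), of which 455 (3.73%) had an unadjusted p below 0.05; DESeq2 called 9 genes, none of them a member. Gad2 was the member with the smallest p. It averaged 371 ± 130 CPM in KO TRAP and 217 ± 102 CPM in WT TRAP (SD, n = 5 each), a log2 fold change of 0.73 ± 0.32 (edgeR, unadjusted p = 0.0353). KO TRAP 4 and KO TRAP 3 exceeded every WT library, while WT TRAP 1, at 374 CPM, lay above 3 of the 5 KO libraries. Without WT TRAP 1 the value was 1.13 ± 0.27, the highest of the 10 fits without 1 library (the lowest was 0.58). Gad2 passed under none of 15 alternatives (edgeR or DESeq2, lowest adjusted p = 0.623). Within runs 1 and 2 the difference was 0.65 and 1.09. The summed serotonergic markers were 5836 to 10336 CPM in KO TRAP and 4210 to 10622 CPM in WT TRAP.

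The other 7 members had log2 fold changes of -0.77 to 0.62 in TRAP, and the smallest unadjusted p among them was 0.248, for Abat (edgeR). Abat averaged 543 ± 182 CPM in KO TRAP and 434 ± 89.7 CPM in WT TRAP (0.31 ± 0.26). Gad1 was at 0.12 ± 0.35, and its runs went opposite ways (0.60 and -0.41). Slc32a1 was at 0.08 ± 0.56 and Slc6a5 at 0.09 ± 0.72; the sign of Slc32a1 turned under upper quartile scaling (-0.0018). Pvalb averaged 15.8 ± 9.48 CPM in KO TRAP and 33.7 ± 35.8 CPM in WT TRAP (-0.77 ± 0.71), with 0.38 and -2.28 within runs 1 and 2, and WT TRAP 5 was far above the rest. Tal1 was at 0.34 ± 0.48, with -0.17 and 1.10 within runs, and Sox14 at 0.62 ± 0.83, with 0.14 and 1.34. Without KO TRAP 1, 0 genes passed (edgeR); Gad2 was at 0.87 ± 0.33, Abat at 0.09 ± 0.26, Sox14 at 0.16 ± 0.95, Slc6a5 at 0.27 ± 0.76 and Slc32a1, whose sign turned, at -0.32 ± 0.55. The SEs of 0.56 to 0.83 for Slc32a1, Slc6a5, Pvalb and Sox14 were the widest. Sizeable changes of any member could have gone undetected, since Celf6, at -1.52 ± 0.38, did not pass either (edgeR, adjusted p = 0.999).

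In total RNA, likewise, 0 of the 8 members passed between KO input and WT input (edgeR, adjusted p = 1.00 each), against 0% of 13036 genes tested, 376 of them (2.88%) with an unadjusted p below 0.05; DESeq2 called 6 genes and no member. Sox14 differed most. It averaged 9.93 ± 10.4 CPM in KO input (n = 5) and 29.8 ± 18.3 CPM in WT input (n = 3), with 3 KO libraries below all WT libraries and 2 WT libraries above all KO libraries. KO minus WT was -2.47 ± 1.01 (edgeR, unadjusted p = 0.0270). It was -3.78 within run 1 and 0.60 within run 2, which holds 1 WT input library. Of 7 markers of ependyma, choroid plexus and meninges, 5 were lower and 2 higher in KO input, and 0 passed. They summed to 2327, 1114, 989, 2786 and 429 CPM in KO input 1 to 5 and 5454, 1582 and 4712 CPM in WT input 1, 2/3 and 5. This sum did not follow Sox14 in every library. KO input 1, with 0.675 CPM of Sox14, had a larger sum than WT input 2/3, with 28.9 CPM. The part of these markers in the Sox14 values was not tested.

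Gad2 averaged 542 ± 278 CPM in KO input and 609 ± 46.1 CPM in WT input (-0.17 ± 0.31). KO input 3, at 1028 CPM, was above all WT libraries and the other 4 KO libraries were below them. Slc32a1 averaged 69.9 ± 38.3 CPM in KO input and 88.8 ± 42.9 CPM in WT input (-0.33 ± 0.43), and Pvalb 32.1 ± 18.8 CPM in KO input and 46.9 ± 24.9 CPM in WT input (-0.50 ± 0.50). Gad1, Slc6a5, Abat and Tal1 had log2 fold changes of -0.14 to -0.05, with SEs of 0.32 to 0.53. Slc6a5 went opposite ways in the runs (0.66 and -1.49), as did Abat (0.16 and -0.76), Gad1 (-0.29 and 0.31) and Tal1 (-0.46 and 0.72). Without WT input 2/3, 0 genes passed (edgeR), Sox14 was at -2.43 ± 1.11 and Gad2 at -0.27 ± 0.36, and Slc6a5 (-0.45 ± 0.62) and Abat (-0.42 ± 0.35) were farther from 0.

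Whether the genotype difference itself differed between TRAP and input was tested as an interaction. None of the members passed (edgeR, adjusted p = 1.00 each), against 0% of 14261 genes; 554 genes (3.88%) had an unadjusted p below 0.05, and DESeq2 called 4 genes and no member. Without KO TRAP 1, or without WT input 2/3, edgeR likewise called 0 genes. Gad2 had 0.93 ± 0.49 (unadjusted p = 0.0659) and Sox14 2.35 ± 1.34 (unadjusted p = 0.0909). The other 6 ran from -0.26 ± 0.89 for Pvalb to 0.48 ± 0.44 for Abat. In the pathway lists, 0 genes passed in either KO against WT comparison or in the interaction. No ratio passed between genotypes. Gad1 to Gad2 was -2.12 ± 0.83 in KO TRAP and -1.48 ± 0.39 in WT TRAP (exact permutation test, p = 0.183), and -2.44 ± 0.60 in KO input and -2.67 ± 0.24 in WT input (exact permutation test, p = 0.571). Slc6a5 to Slc32a1 was -1.05 ± 1.41 in KO TRAP and -0.66 ± 1.46 in WT TRAP (exact permutation test, p = 0.698), and -0.74 ± 0.57 in KO input and -1.13 ± 0.62 in WT input (exact permutation test, p = 0.464). Adjusted over the 6 ratio comparisons, these p-values were 0.548 for Gad1 to Gad2 in TRAP and 0.838 for the other 3.

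**Figure D5:**
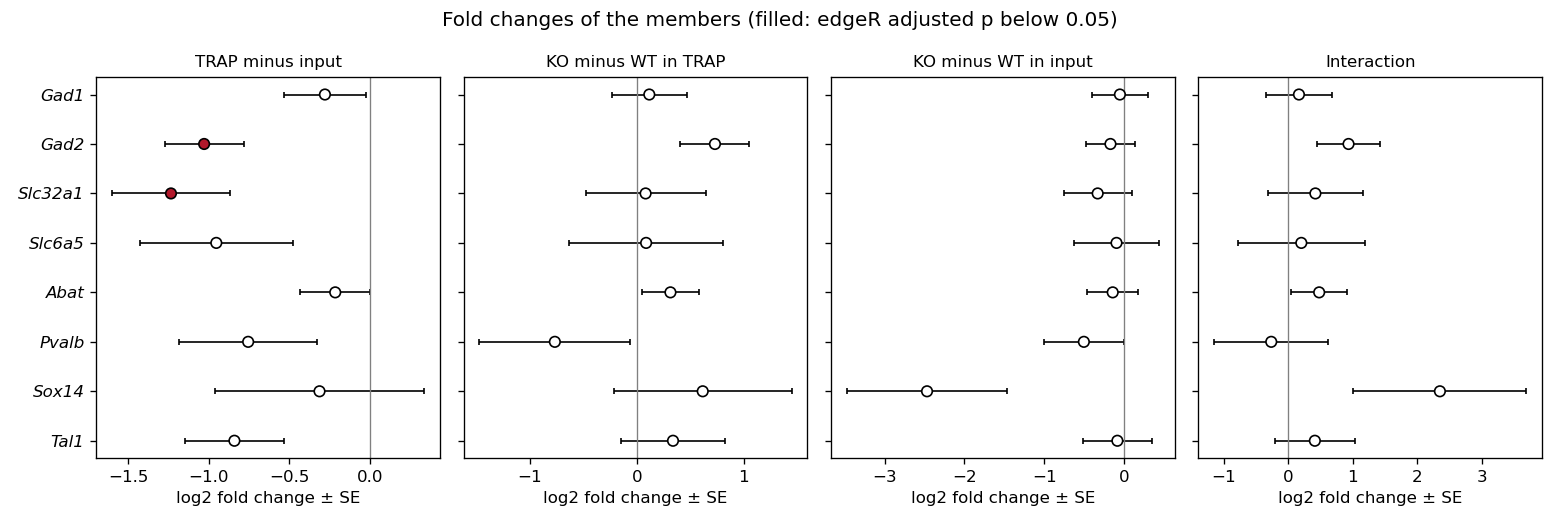
Log2 fold change ± SE of each member in TRAP minus input, KO minus WT in TRAP, KO minus WT in input, and the interaction (the KO minus WT difference in TRAP less that in input); filled points have an edgeR adjusted p below 0.05. Gad2 and Slc32a1 are filled in TRAP minus input, and no point is filled in the other panels.

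Splicing could be read for 3 members. The authors' deposited tables hold 4 events in them, a skipped exon each in Gad1, Abat and Slc6a5 and an alternative splice site in Abat, given as PSI, the fraction of transcripts with the exon. No event had values in 3 libraries of each genotype, or in 2, so none was tested. The 168-base Abat exon (chromosome 16, 8611127–8611294) was at 0.940 in KO TRAP 4, 0.950 in WT TRAP 2, 0.920 in WT TRAP 3 and 0.962 in KO input 3 in the authors' deposited tables. The 139-base Slc6a5 exon (chromosome 7, 49914712–49914850) was at 0.926 in KO TRAP 3, 0.957 in WT TRAP 3 and 0.932 in WT TRAP 5, and at 0.954 in KO input 3, 0.927 in KO input 5 and 0.930 in WT input 5. The 80-base Gad1 exon (chromosome 2, 70584420–70584499) had a single value, 0.0323 in KO TRAP 2, and the Abat splice site 0.948 in KO TRAP 5. PSI was kept only where its credible interval was narrow, which at low counts favours values near 0 or 1, so these few values do not describe the members' splicing in general. Gad1 and Abat are marked as targets of CELF6 in crosslinking and immunoprecipitation in the authors' deposited tables and Slc6a5 is not; 24.7% of the 4133 genes with an event there are so marked.

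The genes with the pattern most like that of the mean of Gad1, Gad2 and Slc32a1 over the 18 libraries were found by the root mean square difference of centred log2 CPM. They were Sema6a (0.353), Slc12a5 (0.361), Lrrn1 (0.362), Fermt2 (0.366) and Slc22a23 (0.367), against a median of 1.01 over 11341 genes. Gad2 itself was at 0.424, Gad1 at 0.498, Abat at 0.585, Slc32a1 at 0.629 and Tal1 at 0.691. Slc6a5 (1.09), Pvalb (1.11) and Sox14 (1.64) were farther from it than the median gene. Gad1, Gad2 and Slc32a1 are nearer by construction, since the mean is made of them. Noisier genes are farther by construction, and the libraries share their scaling, so the measure is a description.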

How the data were processed

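RNA-seq counts of 24062 genes were used as deposited by the authors, whole numbers per gene from featureCounts 1.4.6-p5 (exons summed, no strand, no multi-mapping reads, mm10) per the file headers; the submitters' processing notes name Trimmomatic and STAR without versions. PSI values are fractions that the authors deposited, made with MISO and limited to credible intervals no wider than 0.20, per the series' design text. The 4 repeat runs of replicate 3 and WT input 4, labelled an outlier (325072 counts), were left out, and WT input 2 and 3 were summed, leaving 18 libraries. The members and gene lists were chosen with earlier results of these data known.

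Genes passing filterByExpr were fitted with edgeR 4.0.16 in R 4.3.3 (TMM, quasi-likelihood F test, sequencing run as covariate, Benjamini-Hochberg over all genes tested, threshold 0.05); the method was tested on simulated data. TRAP against input averages the KO and the WT difference. SE is the log2 fold change over the square root of F. Ratios of counts (0.5 added) were tested by exact permutation. The text names the members, the 4 genes of each pathway list with the smallest p in TRAP against input, the 5 most alike genes, and Celf6 and Tph2 as checks. Alternatives were DESeq2 1.42.0, no filter, upper quartile scaling, no run term, the replicate number as a block, each library left out, WT input 2 and 3 kept apart, and each genotype or run alone. The planned limma test of PSI had no member event with enough values.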

Additional observations from a re-analysis of the deposited data

Results flagged for a closer look

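Among 30 groups of library values examined (the 8 members and the 2 ratios in groups of 5), 2 held a library far from the others by Dixon's criterion, and chance marks about 1 in 20 groups. The log2 ratio of Slc6a5 to Slc32a1 counts was 1.89 in WT TRAP 3, where the gap to the next library was 0.752 of the group's range (critical value 0.710); the other 4 WT TRAP libraries lay between -1.69 and -0.81. In KO input 2 the same ratio was 0.242, with a gap of 0.715 of the range, and the other 4 KO input libraries lay between -1.19 and -0.78.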

How the results depend on the processing

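TRAP against input called 673 genes; DESeq2 called 1332 (667 shared), no filter on low counts 1065 (642 shared), KO libraries alone 124, WT alone 160 and run 1 alone 233, and leaving out 1 library gave 346 (without WT input 5) to 831, with 363 without WT input 1. The count of members past the threshold, 2, was 3 with DESeq2, 1 with no run term, 0 with KO libraries alone, 1 with WT alone, 0 in run 1 and 0 in run 2 alone, and 1 to 2 without 1 library. KO against WT in TRAP gave 0 genes, 9 with DESeq2 and 16 with no filter. In input it gave 0, 6 with DESeq2, 4 with no filter, 1 with the replicate block and 0 to 1 without 1 library. The interaction gave 0, 4 with DESeq2 and 3 with no filter. The Gad1 to Gad2 ratio in TRAP against input was 0.62 to 0.88 without 1 library.

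Signs turned as follows, and the cause was not tested. In TRAP against input, Abat was 0.0168 and Sox14 1.26 with KO libraries alone, Sox14 0.35 in run 1, and Sox14 -0.63 to 0.0259 without 1 library. In KO against WT in TRAP, Slc32a1 was -0.0018 under upper quartile scaling and -0.0906 with no run term; without 1 library Gad1 was -0.10 to 0.31, Slc32a1 -0.32 to 0.36 and Slc6a5 -0.82 to 0.56. In KO against WT in input, with WT input 2 and 3 apart, Gad1 was 0.0081, Slc6a5 0.0760 and Abat 0.0066, and Tal1 was 0.0580 with no run term; without 1 library Gad1 was -0.27 to 0.22, Slc6a5 -0.45 to 0.74, Abat -0.42 to 0.23 and Tal1 -0.47 to 0.22. In the interaction, without 1 library, Gad1 was -0.0380 to 0.40, Slc6a5 -0.45 to 0.61 and Pvalb -0.75 to 0.35. The Slc6a5 to Slc32a1 ratio without 1 library was -0.27 to 0.22 in TRAP against input and -0.82 to 0.24 in KO against WT in TRAP.

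Whether a replicate number marks 1 animal was not settled. After group and run were fitted, same-numbered TRAP and input libraries had correlations of residuals of -0.186 to 0.0366. Those of same-numbered KO and WT TRAP libraries were -0.172 to 0.0328, and those of KO and WT input -0.0902 to 0.192. With so few libraries per group and run, low correlations cannot show that the libraries were unpaired. With the replicate block, TRAP against input called 540 genes (462 shared) and Gad2 (adjusted p = 0.00387) and Slc32a1 (adjusted p = 0.00993) stayed called by edgeR, while Slc6a9 (adjusted p = 0.0538), Aldh5a1 (0.121), Glra2 (0.0517), Tac1 (0.0557) and Zfpm1 (0.0767) were not. Aldh5a1 was also not called with no filter (adjusted p = 0.0541), nor Zfpm1 under upper quartile scaling (0.0539). Cplx1, which had missed, was called under the block (adjusted p = 0.0440), with no filter, under upper quartile scaling, by DESeq2 and with WT input 2 and 3 apart, and Gabbr2 under the last 3 of these. Under the block Slc32a1 was -0.15 and Slc6a5 -0.49 in KO against WT in TRAP, Tal1 0.0523 in KO against WT in input, and Slc6a5 -0.73 in the interaction.

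Among the other genes named in the pathway lists, Slc6a11, Maob and Gata2 were called under every alternative run, and Pax2, Gata3, En1 and Pnoc under all but some of the fits of 1 genotype or 1 run. The alternatives planned for PSI (other PSI limits, no run term, the block, libraries left out) gave no value, since 0 member events had enough values. WT input has 3 libraries, and most calls near the threshold were lost without WT input 1 or WT input 5. Low counts limit Sox14, which had 4 counts in KO input 1 and 5 in WT TRAP 4.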

Other observations

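Repeat runs show how well a library's values come back. In 4 libraries sequenced on both runs, the 8 members gave 32 pairs of CPM whose median absolute log2 difference was 0.129. The largest was 0.655, for Sox14 in KO TRAP 3, and without Sox14 it was 0.381, for Tal1 in the same library. WT input 4, which entered no comparison, held 86 counts of Gad1, 67 of Gad2, 31 of Slc32a1, 2 of Slc6a5, 295 of Abat and 88 of Pvalb, and 0 of Sox14 and Tal1.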
